A study of Mus musculus with 6 samples.

Results

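Transcripts of the pyruvate dehydrogenase (PDH) complex, its regulators and the tricarboxylic acid (TCA) cycle were examined in whole retina of wild-type C57BL6/J mice. The 39 genes were chosen by symbol from a list of enzymes, and all 39 were among the 15465 genes of the deposited tables. RNA of isolated retina was sequenced from 3 biological replicates. Each pooled 5 mice, and its 2 technical replicates share 1 column of values. The labels used here give no age or sex, and other tissues and genotypes were not analysed here. The grouping follows the sample titles. The source labels number the samples differently, so each SD and p-value rests on the titles and measures the spread between these pools. Values are given as RPKM (reads per kb of transcript, scaled to the reads of the library), a unit inferred from the numbers themselves. The depth behind each value is unknown.

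With 1 group of samples there is no treated or mutant tissue to compare. The data give the level of each enzyme step, the balance of isoforms and subunits within a pool, and the spread between pools. The columns summed to 275994, 302634 and 249532 RPKM in replicates 1, 2 and 3. Markers of the labelled tissue were present, with 12 of 12 rod genes at 1 RPKM or more in every replicate and a list median of 709 ± 64.5 RPKM (SD, n = 3). In whole tissue, a difference in the number of cells of a type cannot be told apart from a difference in RNA per cell.

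The PDH complex turns pyruvate, the end product of glycolysis, into acetyl-CoA inside mitochondria. The TCA cycle oxidises that acetyl-CoA and hands electrons to the respiratory chain, while malate and aspartate carry reducing power between cytosol and mitochondria. The retina is known for making lactate even when oxygen is present, and photoreceptor inner segments are packed with mitochondria. Kinases that phosphorylate the PDH complex switch it off and phosphatases switch it on, which sets how much pyruvate enters the cycle.

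PDH and TCA cycle transcripts were mostly abundant. The median over the 39 genes was 28.3 ± 3.97 RPKM (SD, n = 3), with 25.3, 32.8 and 26.7 RPKM in replicates 1, 2 and 3, beside a median of 6.09 ± 0.396 RPKM over all genes. Of the 39, 38 had 1 RPKM or more in every replicate, against 77.5% of all genes, and 30 had 10 RPKM or more, against 33% of all genes. Mdh2, Mdh1, Got1 and Idh3b had the 4 means above 100 RPKM. The 3 lowest means were those of Me3, Suclg2 and Pdk4, and Pdk4 alone stood under 1 RPKM. The plot of levels by gene shows a wide span between genes and replicates of a gene that mostly lie close together, with a median coefficient of variation of 14.1%. Between genes next to each other in the order of means, 14 of 38 steps were larger than their SD and had the same direction in every replicate, so much of the order in the middle of the list is not resolved.

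**Figure D1:**
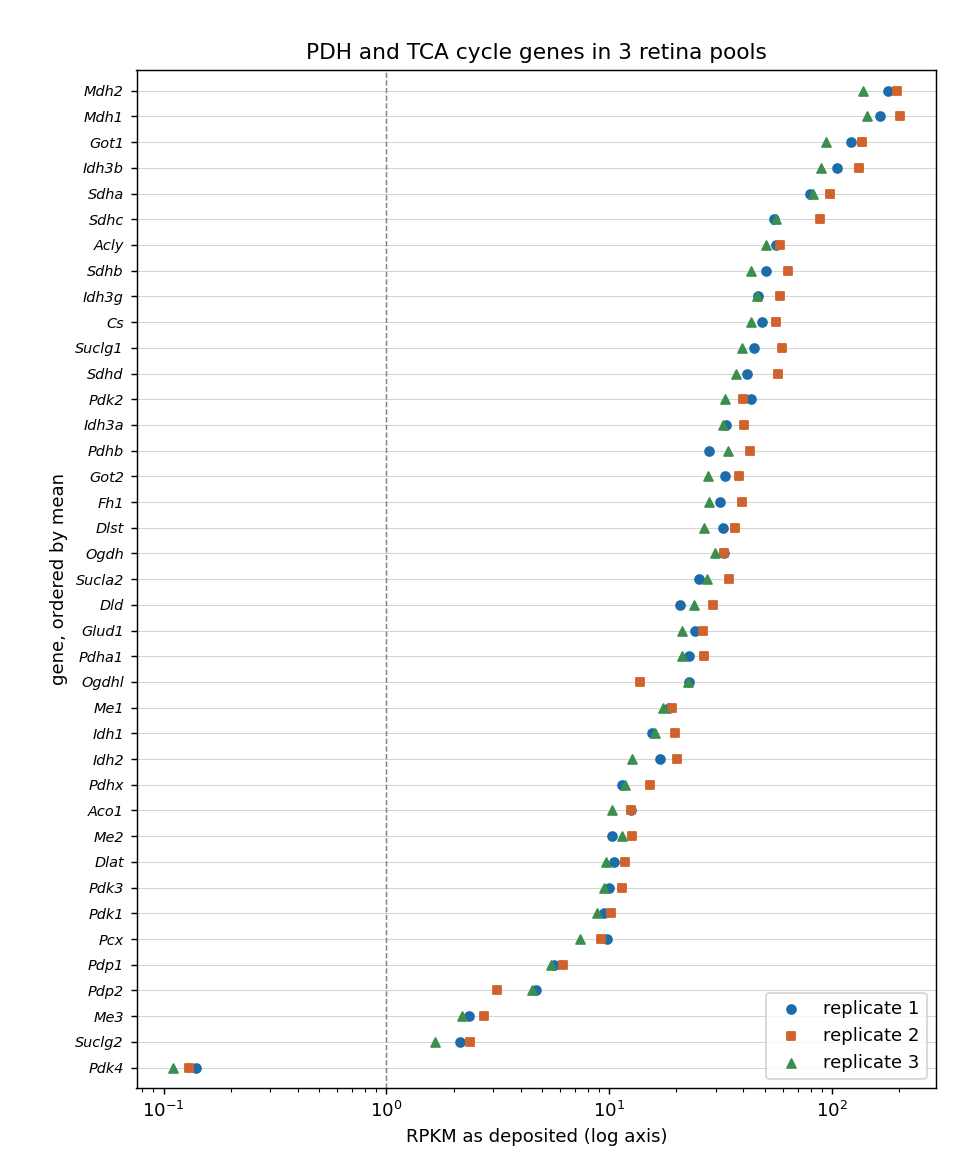
RPKM of the 39 PDH and TCA cycle genes in each of the 3 retina pools (x axis, log scale), with genes ordered by mean (y axis) and a dashed line at 1 RPKM. Mdh2 and Mdh1 lie at the top with means of 171 and 169 RPKM, Pdk4 at the bottom with 0.127 RPKM, and Ogdhl and Pdp2 are lower in replicate 2 than in the others.

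Within the PDH complex, the 5 core genes were at unequal levels. Pdhb, the beta subunit of the pyruvate-decarboxylating E1 enzyme, had 28.1, 42.7 and 34.0 RPKM in replicates 1, 2 and 3. Pdha1, the E1 alpha subunit that carries the regulatory phosphorylation sites, had 22.8, 26.6 and 21.2 RPKM. Pdhb exceeded Pdha1 in 3 of 3 replicates, by 0.55 ± 0.22 on the log2 scale (SD, n = 3). Dld, the E3 enzyme that the complex shares with the oxoglutarate dehydrogenase complex, had 20.7, 29.2 and 23.9 RPKM. Its replicate values overlapped those of Pdha1.

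The E2 core was the lowest part. Dlat, the E2 acetyltransferase, had 10.5, 11.8 and 9.69 RPKM, and Pdhx, which ties E3 to the E2 core, had 11.4, 15.2 and 11.8 RPKM. Every value of these genes was below every value of Pdha1, Pdhb and Dld, and Dlat was below Pdhx in 3 of 3 replicates (-0.25 ± 0.12 on the log2 scale). All log2 ratios here are of RPKM + 0.1 within a replicate. An exact sign-flip permutation test over 3 replicates cannot give a two-sided p under 0.25, and this was its value for each of the 19 ratios, of 22 computed, that had 1 direction in every replicate. With values multiplied by transcript length, which undoes the division behind RPKM, the ratios of Pdhb to Pdha1 and of Dlat to Pdhx change direction.

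Among the 4 PDH kinases, Pdk2 was the main transcript. It had 43.1, 39.9 and 33.0 RPKM and took 65.9% ± 2.49 of the summed kinase RPKM (SD, n = 3). Pdk3 had 9.97, 11.4 and 9.45 RPKM (17.6% ± 1.48), and Pdk1, a target of the hypoxia factor HIF-1 in other cells, had 9.49, 10.2 and 8.83 RPKM (16.3% ± 1.05). Pdk2 exceeded Pdk1 by 2.01 ± 0.15 on the log2 scale and Pdk3 by 1.90 ± 0.18, and no replicate of either reached the lowest replicate of Pdk2. With values multiplied by transcript length, the ratio to Pdk1 was 0.80 and the share of Pdk2 54.8%. Pdk4, the kinase that fasting induces in muscle and heart, had 0.14, 0.13 and 0.11 RPKM, or 0.216% of the kinase sum. Its level lay at percentile 6.49 of all genes.

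The phosphatases that reverse these kinases were low and closer together. Pdp1, the calcium-stimulated form, had 5.63, 6.2 and 5.5 RPKM, and Pdp2 had 4.71, 3.14 and 4.49 RPKM. Replicates 1 and 3 of Pdp2 were alike and replicate 2 was lower, so that the ratio of Pdp1 to Pdp2 was 0.50 ± 0.40 on the log2 scale, little more than its SD. Its direction turns with values multiplied by transcript length. Pdpr, the regulatory subunit of the phosphatase, had 7.0, 5.93 and 7.64 RPKM.

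Pyruvate can also enter the cycle as oxaloacetate through Pcx, pyruvate carboxylase, which had 9.75, 9.22 and 7.39 RPKM. Cs, citrate synthase, had 48.6, 55.7 and 43.1 RPKM. All Cs values were above all values of the PDH core genes. Aco1, the cytosolic aconitase that also acts as an iron regulatory protein, had 12.6, 12.6 and 10.3 RPKM, below every value of Cs.

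The isocitrate step is run by the NAD-dependent enzyme IDH3, whose catalytic alpha subunit pairs with a beta and a gamma subunit. Idh3b, loss of which is linked to human retinitis pigmentosa, had 106, 133 and 89.6 RPKM. Idh3g had 46.6, 58.6 and 46.2 RPKM and Idh3a 33.5, 40.3 and 32.4 RPKM. The lowest Idh3b value was above the highest value of the other subunits. Idh3b exceeded Idh3a by 1.61 ± 0.13 on the log2 scale and took 55.8% ± 2.21 of the summed RPKM of the subunits. The ratio of Idh3g to Idh3a was the steadiest of the 22, at 0.51 ± 0.03, but its direction turns with values multiplied by transcript length.

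The NADP-dependent isocitrate dehydrogenases stood below IDH3. Idh1, the cytosolic form, had 15.6, 19.7 and 16.0 RPKM, and Idh2, the mitochondrial form, had 17.0, 20.03 and 12.7 RPKM. Their ratio was 0.063 ± 0.24 on the log2 scale, with Idh1 higher in 1 of 3 replicates (exact sign-flip permutation test, p = 1.0), so a difference between them was not resolved. Idh3a exceeded Idh2 by 1.11 ± 0.21.

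At the oxoglutarate dehydrogenase complex, Ogdh, the E1 enzyme, had 32.8, 32.8 and 29.8 RPKM and Dlst, the E2 succinyltransferase, had 32.4, 36.5 and 26.7 RPKM. Their ratio was -0.0067 ± 0.16 on the log2 scale (exact sign-flip permutation test, p = 0.75). Ogdhl, an E1-like paralogue expressed mainly in brain, had 22.9, 13.7 and 22.6 RPKM. Replicates 1 and 3 of Ogdhl were nearly equal, while replicate 2 was lower. Ogdh took 62.1% ± 7.37 of the E1 sum, with 58.9%, 70.5% and 56.8% in replicates 1, 2 and 3.

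Succinate-CoA ligase joins an alpha subunit, Suclg1, with a beta subunit that decides whether ATP or GTP is made. Suclg1 had 44.4, 59.5 and 39.4 RPKM. Sucla2, the beta subunit of the ATP-forming enzyme, had 25.3, 34.4 and 27.5 RPKM, and Suclg2, that of the GTP-forming enzyme, had 2.13, 2.36 and 1.66 RPKM. Sucla2 took 93.4% ± 1.05 of the beta-subunit RPKM and exceeded Suclg2 by 3.76 ± 0.23 on the log2 scale, which was the widest ratio between isoforms after that of Pdk2 to Pdk4.

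**Figure D2:**
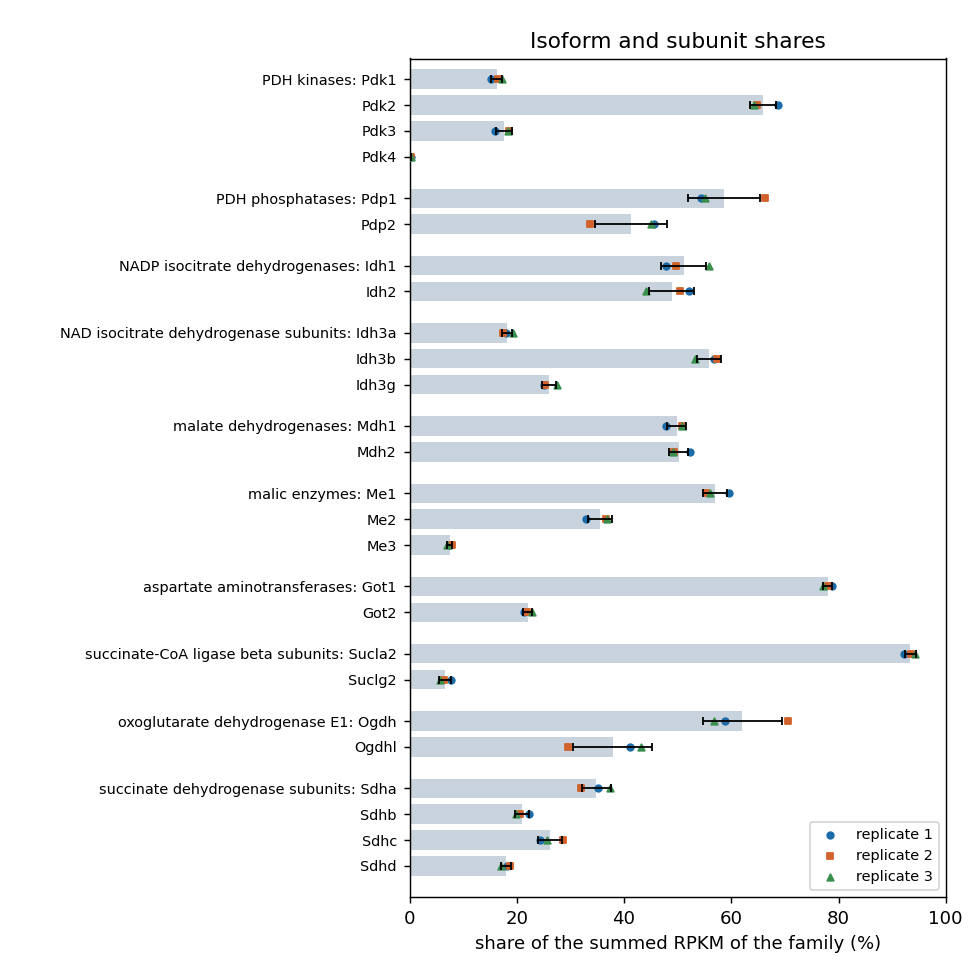
Share of each isoform or subunit in the summed RPKM of its family (x axis, percent), with bars at the mean, error bars of 1 SD over 3 replicates and a point for each replicate. Sucla2 holds 93.4%, Got1 78.0% and Pdk2 65.9% of their families, while Mdh1 and Mdh2 lie near equality.

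Succinate dehydrogenase, which is also complex II of the respiratory chain, had all 4 subunits above the median of the list, with means from 45.3 to 86.5 RPKM. Sdha, the flavoprotein, had 79.4, 98.2 and 81.9 RPKM. Sdhb, the iron-sulphur subunit, had 50.5, 63.5 and 43.5 RPKM. The membrane anchors were Sdhc with 55.1, 87.9 and 56.1 RPKM and Sdhd with 41.3, 57.3 and 37.2 RPKM. Sdha exceeded Sdhb in every replicate (Sdhb to Sdha -0.73 ± 0.16 on the log2 scale) and Sdhc exceeded Sdhd (0.54 ± 0.11). With values multiplied by transcript length these ratios were -2.08 and 1.91. As deposited, all 4 genes were highest in replicate 2, Sdhc most clearly.

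Fh1, fumarase, had 31.3, 39.5 and 27.9 RPKM, and Mdh2, the mitochondrial malate dehydrogenase that closes the cycle, had 179, 195 and 138 RPKM. Mdh2 exceeded Fh1 by 2.37 ± 0.12 on the log2 scale, or by 1.52 with values multiplied by transcript length. By the median of the genes at each step, succinate-CoA ligase was at 29.1 ± 4.77 RPKM, the oxoglutarate dehydrogenase genes at 30.6 ± 3.41, Cs at 49.2 ± 6.32, IDH3 at 50.4 ± 7.04 and succinate dehydrogenase at 59.4 ± 14.2. Mdh2, at 171 ± 29.5 RPKM, stood above all of these.

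The malate-aspartate shuttle moves cytosolic NADH into mitochondria through paired enzymes on either side of the membrane. Mdh1, the cytosolic malate dehydrogenase, had 164, 201 and 143 RPKM, and its ratio to Mdh2 was -0.012 ± 0.10 on the log2 scale (exact sign-flip permutation test, p = 1.0). With values multiplied by transcript length it was 0.53. The aspartate aminotransferases were unequal. Got1, the cytosolic form, had 122, 136 and 93.5 RPKM, and Got2, the mitochondrial form, had 33.0, 38.2 and 27.8 RPKM. Got1 exceeded Got2 by 1.82 ± 0.07 and took 78.0% ± 0.814 of their sum.

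Got2 is less certain than Got1, because much of its sequence occurs elsewhere. Of the 50-base windows of the Got2 transcripts, 47.2% also occurred in a transcript of another gene of the GENCODE M21 annotation. No label says how the authors counted reads that fit several genes, and the part of shared windows in the level of Got2 was not tested. The same share was 30.4% for Me1, 30.3% for Pdhb, 19.5% for Suclg2 and 16.9% for Pdha1. It was under 10% for the other 34 genes and 0 for 27 of them.

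The remaining enzymes link the cycle to other pathways. Glud1, glutamate dehydrogenase, had 24.3, 26.3 and 21.2 RPKM. Acly, which splits exported citrate into cytosolic acetyl-CoA, had 56.0, 58.4 and 50.4 RPKM and exceeded Cs in every replicate (Cs to Acly -0.16 ± 0.09 on the log2 scale, or -0.76 with values multiplied by transcript length). The malic enzymes turn malate into pyruvate. Me1, the cytosolic NADP form, had 18.6, 19.1 and 17.4 RPKM, Me2, the mitochondrial NAD form, 10.3, 12.6 and 11.5 RPKM and Me3, the mitochondrial NADP form, 2.35, 2.73 and 2.19 RPKM. The 3 ranges did not overlap, and Me1 took 57.0% ± 2.27 of the sum.

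**Figure D3:**
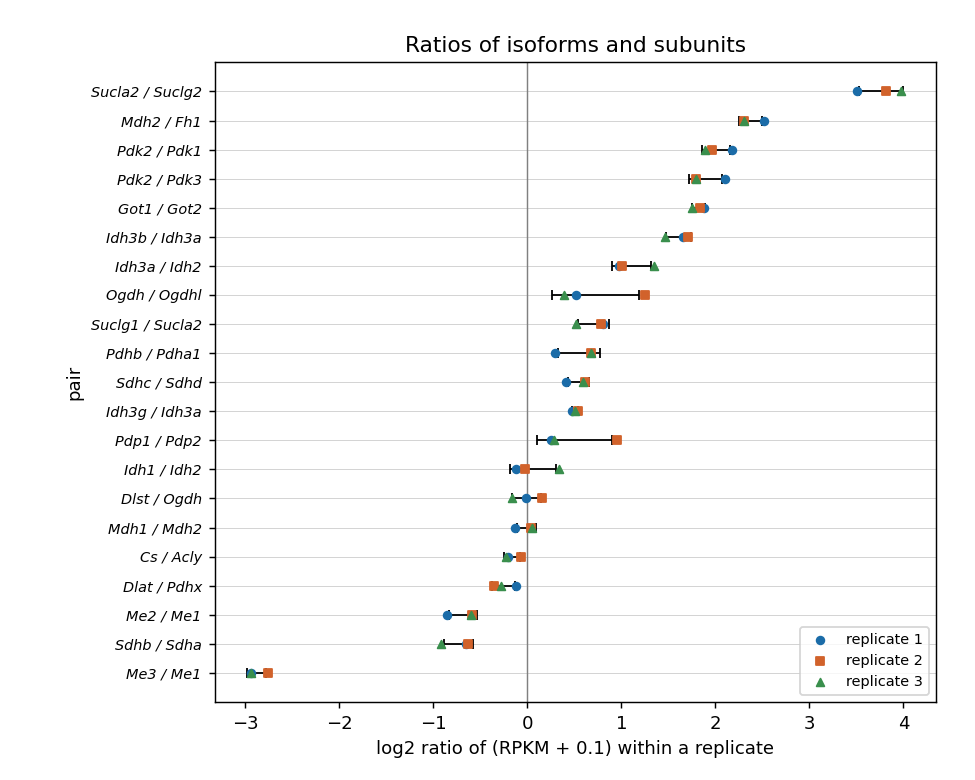
Log2 ratio of RPKM + 0.1 between isoforms or subunits of the list within each replicate (x axis) for 21 pairs (y axis), with points for replicates and error bars of 1 SD around the mean of 3; Pdk2 to Pdk4, at 7.41, is left off. Ratios of Idh1 to Idh2, Dlst to Ogdh and Mdh1 to Mdh2 straddle 0, and those of Ogdh to Ogdhl and Pdp1 to Pdp2 are set apart in replicate 2.

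Promoter sequence was available for 35 of the 39 genes, in the RefSeq table of build GRCm38.p6. The 250 bases upstream of each annotated start were searched on both strands for the motifs of factors known to act on mitochondrial genes. The core GCATGCGC of NRF1 was found in 3 of the 35 (8.57%), against 5.08% of 8940 genes whose mean in these tables reached 1 RPKM. These 3 are shown because they are the only promoters of the list with this core. The capitals mark the core or its reverse complement GCGCATGC, and both lie overlapping in the longer palindromic NRF1 motif.
Sdhb: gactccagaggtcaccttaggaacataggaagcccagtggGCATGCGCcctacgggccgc
Ogdh: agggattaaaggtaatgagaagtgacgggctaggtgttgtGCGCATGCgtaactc
Glud1: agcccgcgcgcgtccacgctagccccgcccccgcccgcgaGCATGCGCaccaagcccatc
These windows lie at chr4:140961177-140961236, chr11:6292503-6292557 and chr14:34310555-34310614, all on the plus strand of GRCm38.p6, which is not the build of the deposited tables. The core begins 54 bases upstream of the start in Sdhb, 132 in Glud1, and 15 or 36 in Ogdh, which has more than 1 annotated start there.

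The other motifs were found in 1 of the 35 promoters or in none. The ETS motif CCGGAAGT was in 0 of the 35 promoters and in 6.51% of the 8940. The longer NRF1 form was in 0, against 1.92%. The oestrogen-related receptor motif TCAAGGTCA was in 0, against 0.347%, and its core AAGGTCA, which the longer motif contains, was in 1 (Got1), against 3.47%. A match of letters is a description of the window and not of binding, and windows without one say nothing of the factor.

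Other genes of the pathway were taken from lists. Of 20 symbols for assembly factors, cofactors, pyruvate carriers and related enzymes, 15 were among the rows, with a median of 4.09 ± 0.746 RPKM, and 13 had 1 RPKM or more in every replicate. Sdhaf1, a succinate dehydrogenase assembly factor, was among the highest with 48.0 ± 5.89 RPKM. Sdhaf1 shared 69% of its windows with another gene. The tables carry the mitochondrial pyruvate carrier under older symbols. Brp44, now Mpc2, had 26.7, 41.6 and 27.6 RPKM and Brp44l, now Mpc1, had 1.41, 1.67 and 1.81 RPKM. The carrier protein is built from both, and 44.2% of the windows of Brp44l were shared with other genes against 0 for Brp44, and the part of this in the unequal values was not tested.

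Mitochondrial carriers and enzymes that feed the cycle were also present. Of 11 carriers of metabolites, 10 had 1 RPKM or more in every replicate, with a median of 14.7 ± 2.92 RPKM. The highest were Slc25a22, a glutamate carrier (217 ± 23.4 RPKM), Slc25a5, an ADP/ATP carrier (77.0 ± 10.7), and Slc25a4 (43.3 ± 3.16). All 11 carriers have less certain symbols, meaning that adding a digit and anything after it to a symbol of the tables gives another one. Rows with either symbol often differed between replicates by far more than other rows. Slc25a11, the oxoglutarate carrier, had 13.97, 73.0 and 9.11 RPKM (limma, adjusted p = 0.000555). Slc25a12, an aspartate-glutamate carrier, had 59.0, 13.2 and 52.0 RPKM (limma, adjusted p = 0.00121). These were the only 2 of the 10 carriers tested that varied, against 5.45% of all genes tested. That share falls to 0.936% without the less certain symbols, which all 10 have, so the count is not a result about carriers. None of the 39 genes has such a symbol.

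The list of glutamine, ketone and propionyl-CoA entry had a median of 10.3 ± 2.36 RPKM over 17 genes. Glul, the glutamine synthetase of Muller glia, had 398, 255 and 335 RPKM. Gls2, a glutaminase, followed with 78.4 ± 4.54 RPKM, but its symbol is also less certain. Pck1, the cytosolic phosphoenolpyruvate carboxykinase, was listed at 0 in all 3 replicates.

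As a list, the 39 genes had a lower median than the pathways on either side of them. The list median was lower than that of 17 glycolysis genes in 3 of 3 replicates, with differences of -2.71, -2.33 and -2.10 on the log2 scale in replicates 1, 2 and 3 (mean -2.38 ± 0.31). It was lower than that of 22 oxidative phosphorylation genes in 3 of 3 replicates (-1.52 ± 0.10). For each, the exact sign-flip permutation test gave its smallest p of 0.25. With values multiplied by transcript length the difference to oxidative phosphorylation was -0.47. The 39 genes are a mixed list, and its parts differed. Its 16 TCA cycle enzymes had a median of 45.9 ± 9.45 RPKM, against 81.8 ± 16.9 for oxidative phosphorylation and 149 ± 29.6 for glycolysis. The 5 PDH core genes had 22.8 ± 3.24 RPKM, the 6 kinases and phosphatases 7.64 ± 0.512 and the 12 other enzymes 18.1 ± 1.61. Gapdh, a glycolysis gene that had 9.88 ± 0.805 RPKM, shares 78.3% of its windows with other genes, most of them with a processed pseudogene. Eno1, Pgk1 and Pgam1, also of the glycolysis list, had means of 0.263, 15.9 and 10.8 RPKM. They shared 72.2%, 68% and 41.5% of their windows, and the other glycolysis genes with a known share 27% or less. The part of shared windows in these list medians was not tested.

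The pools were then compared with each other. Values were scaled between replicates and each gene's variance on the log2 scale was set against that of genes of its abundance with limma's robust trended prior. Of 12562 genes whose mean reached 1 RPKM, 5.45% varied (adjusted p under 0.05). Of the 38 genes of the list tested, 0 varied, and 2 had an unadjusted p under 0.05, against 8.37% of all genes tested. With 38 genes, a count of 0 cannot be told apart from a share of 5.45%. None of the 38 has a less certain symbol. Without those symbols, 0.936% of all genes tested varied, beside 1 of the 38. The median SD was 0.13 on the log2 scale for the list and 0.15 for all genes tested, or 0.14 for all genes without those symbols. Pdk4 was not tested, because its mean was under 1 RPKM.

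Ogdhl and Pdp2 were the least steady. After scaling, Ogdhl had 23.3, 12.6 and 24.3 RPKM, and replicate 2 minus the mean of the others was -0.91 on the log2 scale (limma, adjusted p = 0.123). It did not pass with all genes. When genes with the less certain symbols were left out, which lowers the share of all genes called to 0.936%, Ogdhl was the only gene of the 38 that passed (limma, adjusted p = 0.012). Over all 11 settings its adjusted p lay between 0.012 and 0.991, the last without replicate 2. Pdp2 had 4.79, 2.88 and 4.82 RPKM after scaling, and the same difference was -0.72 (limma, adjusted p = 0.554). The drop in both rests on replicate 2 alone.

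Most other genes of the list leaned the opposite way. As deposited, 33 of the 38 were highest in replicate 2, against 64.3% of all genes tested. Its scaling factor of 1.09 was the largest. After scaling 24 of the 38 were highest there, against 35.3% of all genes tested. Replicate 2 exceeded the mean of the others by a median of 0.11 on the log2 scale over the list and 0.0081 over all genes with a length. Sdhc (0.47), Sdhd (0.36), Suclg1 (0.32) and Pdhb (0.28) had the largest excess.

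Transcript length moved with this pattern. Across the 38 genes, the excess of replicate 2 fell with log2 transcript length (Pearson r = -0.56, Spearman rho = -0.71). Across all 12394 genes tested that have a length, the same measures were -0.14 and -0.55, and across the 10326 of them without the less certain symbols -0.46 and -0.64. These correlations are across genes of the same libraries, which are not independent replicates, and lengths come from another annotation than the authors'. With a trend on length removed, Ogdhl kept an SD of 0.51 on the log2 scale (limma, adjusted p = 0.187), so its difference was about as large as before. The SD of Sdhc was 0.28 both before and after, while that of Pdp2 was 0.32 instead of 0.41. That of Sdhd fell from 0.21 to 0.11 and that of Suclg1 from 0.19 to 0.10, while Pdhb had 0.23 instead of 0.24.

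**Figure D4:**
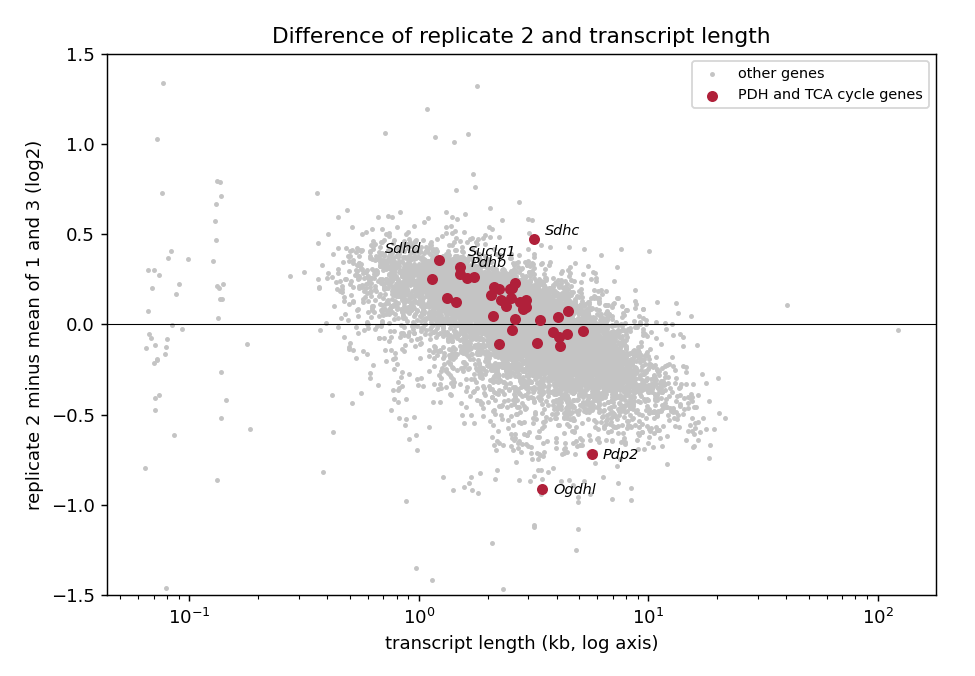
Difference of replicate 2 from the mean of replicates 1 and 3 (y axis, log2 after scaling) against transcript length (x axis, kb, log scale) for the 10326 genes without less certain symbols whose mean reached 1 RPKM and that have a length; 32 genes lie outside the axis. Genes of the list, in red, mostly follow the downward slope of the other genes, in grey. Ogdhl at -0.91 lies below genes of its length and Sdhc at 0.47 above genes of its own.

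Some markers of tissue next to the retina also differed between pools. Whether the amount of such tissue differed was not tested. The 10 skeletal muscle markers, all among the rows, summed to 18.03, 30.7 and 35.4 RPKM in replicates 1, 2 and 3, or 9.51, 28.5 and 6.51 RPKM over the 8 without less certain symbols, and Tnnt3 was listed at 0 in replicate 3. The 11 lens markers summed to 3295, 2435 and 3695 RPKM. Much of this sum was Cryaa, with 2058, 1569 and 1395 RPKM, which did not vary (limma, adjusted p = 0.993). The lens median was 41.4, 34.95 and 154 RPKM in replicates 1, 2 and 3. The 9 pigment epithelium markers summed to 506, 481 and 274 RPKM. Of 8, 11 and 8 genes tested in these lists, 6, 8 and 4 varied (limma), against 5.45% of all genes tested. Myl1, Myh13 and Rpe65 are among those that varied, and their symbols are less certain. The muscle sum without the less certain symbols was highest in replicate 2, as most PDH and TCA cycle genes were. The part of muscle tissue in the levels of these genes was not tested.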

How the data were processed

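The authors deposited 1 table per biological replicate with a gene symbol and a value, taken as RPKM from the values, though FPKM would look the same; no label or header names the unit. Per the submitters' processing notes, GSNAP and HTSeq were used with build mm9; these name no version, annotation or filter. Each table had 15468 rows, and 3 repeated symbols were kept once. Replicates were scaled by a trimmed mean of log ratios (30% and 5% trimmed), with factors 0.984, 1.09 and 0.932. Scaled values were used for the variance test, the differences of replicate 2 from the others, their length correlations and values given after scaling. All other levels and ratios use values as deposited.

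The variance test used limma 3.58.1 in R 4.3.3 on log2(RPKM + 0.1) for genes whose mean reached 1 RPKM, adjusted by Benjamini-Hochberg over all of them at 0.05. Lengths are medians over RefSeq-linked GENCODE M21 transcripts (98.5% of genes). Named genes were all 39, the 3 highest of each context list and those that varied, a few of which are not reported here. Pdpr, Brp44, Brp44l, Pck1, Gapdh, Eno1, Pgk1, Pgam1, Cryaa, Esrra, Esrrg, Ppargc1a, Ppargc1b and Myc were chosen after their values were seen. The members, lists and tests were chosen with earlier results of these data known. Alternatives are given in the closing section.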

Additional observations from a re-analysis of the deposited data

How the results depend on the processing

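The read depth is unknown, so no interval for a single value is given, and 3 pools limit every ratio to a p of 0.25 or more. The number of genes varying between replicates was 685, and it moved to 98 without the less certain symbols, to 0 with the non-robust prior (704 genes at an unadjusted p under 0.05), to 52 with the length trend and those symbols both removed, and to between 300 (without replicate 2) and 476 with a replicate left out (429 without replicate 3). Genes of the list that varied numbered 0, 1 without those symbols (Ogdhl), and again 0 with the length trend removed as well (Ogdhl, limma, adjusted p = 0.123). The length trend was added after seeing the data. Multiplying by transcript length moved the difference to glycolysis to -2.84 and that to oxidative phosphorylation to -0.47. It reversed Pdp1 over Pdp2 (-0.66), Pdhb over Pdha1 (-0.36), Dlat over Pdhx (0.43), Idh3g over Idh3a (-0.34) and Mdh1 over Mdh2 (0.53), by its construction. Of the ratios that kept their direction, it moved these by over 1.5 times: Pdk2 over Pdk1 (0.80), Pdk2 over Pdk4 (6.78), Sdhb over Sdha (-2.08), Sdhc over Sdhd (1.91), Mdh2 over Fh1 (1.52) and Cs over Acly (-0.76). With a replicate left out, 3 unresolved ratios changed sign, with Idh1 over Idh2 between -0.073 and 0.16, Dlst over Ogdh between -0.087 and 0.069 and Mdh1 over Mdh2 between -0.043 and 0.047. Ratios with a low gene also depend on the 0.1 RPKM added. With 1 RPKM added instead, Pdk2 over Pdk4 moved from 7.41 to 5.13, Sucla2 over Suclg2 from 3.76 to 3.30 and Me3 over Me1 from -2.88 to -2.50. With nothing added, Pdk2 was 308, 307 and 300 times Pdk4 in replicates 1, 2 and 3. No paired analysis was possible because there is 1 group.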

Other observations

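Regulators of mitochondrial gene expression were at moderate levels, with a median of 12.4 ± 0.703 RPKM over 12 genes (SD, n = 3). Of the 11 tested, 0 varied between replicates (limma), against 5.45% of all genes tested. With 11 genes, a count of 0 cannot be told apart from that share. Esrrb, an orphan receptor of the oestrogen-related family, had 114, 119 and 105 RPKM, well above its relatives Esrra (18.03 ± 1.64 RPKM) and Esrrg (14.03 ± 1.22 RPKM). The ranges of Esrrb and its relatives did not overlap. Hif1a, the hypoxia factor subunit, had 77.7 ± 4.87 RPKM and Epas1, its paralogue, 41.3 ± 3.35 RPKM. Ppargc1b (19.1 ± 0.446 RPKM) exceeded Ppargc1a (5.72 ± 0.676 RPKM), both coactivators of mitochondrial biogenesis. Myc was under 1 RPKM in every replicate.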
